A study of Glycine max with 12 samples.

Results

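The genes described here are 107 of the 57147 gene IDs measured in soybean pods, chosen because their transcripts stood apart in plants under water deficit and heat at once. A gene was taken when its lowest level in the 3 combined-stress libraries was at least 2 times its highest level in the 9 other libraries, with a mean of at least 10 CPM in combined stress and under 500 CPM in control. CPM is a gene's read count divided by the total count of its library and scaled so that each library adds up to the same sum. The limit on the control mean removed no gene. The members were thus selected on measured levels in all 12 libraries, so every value that sets combined stress against another condition is given as a description, without a test. Tests are reported only between the 3 other conditions, which the rule caps from above but does not order.

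Pods were taken from Glycine max cultivar Magellan plants that had been inoculated with Bradyrhizobium japonicum. The plants had been grown for 16 to 18 days, until flowering began. The length of the treatments and the age of the pods at sampling are not given here. Combined-stress plants were kept at 38 °C in the day and 28 °C at night, and irrigation returned 30% of the water that could be transpired. Heat-stress plants had these temperatures with full irrigation (100%). Water-deficit plants were kept at 28 °C in the day and 24 °C at night with 30% irrigation, and control plants at these cooler temperatures with 100%. Each condition had its own growth chamber at 50 to 60% relative humidity, so condition and chamber cannot be told apart. Each of the 3 libraries per condition pooled 10 to 15 pods from 8 to 10 plants, and seed and pod wall were not separated by the labels. In such bulk samples, fewer cells of a type and less RNA per cell cannot be told apart. Library totals ranged from 17310023 to 26591115 counts. Water deficit replicate 2 stood apart, with 0 counts for 11.0% of the genes tested, against 1.3 to 5.0% in the others.

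Water shortage makes leaves close their stomata, which saves water but reduces evaporative cooling, whereas heat tends to open them. A plant that meets both stresses together therefore faces opposing demands, and plant transcriptomes under such a combination are known to hold changes that neither stress gives alone. The pod encloses the developing seeds, and its own water loss under these conditions is the subject named in the title of the series. The deposited tables give IDs without gene names, and 0 of the IDs matched the available gene table, so no function is assigned to any gene below and the tissue could not be checked against its marker genes.

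The same rule found far fewer genes when another condition was put in the place of combined stress. It found 2 genes for heat stress, 0 for water deficit and 3 for control. The mirrored rule, in which the highest library of a condition lay at or under 1/2 of the lowest of the others, found 24 genes for combined stress, 2 for heat stress, 6 for water deficit and 4 for control. All 3 combined-stress libraries lay above all 9 others for 7.79% of all genes tested. In combined stress 19264 genes averaged 10 CPM or more; of these 2054 had all 3 combined-stress libraries above all 9 others, and the 107 were those with at least a 2-fold gap. The gap, taken as the lowest combined-stress CPM over the highest other CPM, had a median of 2.61 (quartiles 2.29 and 3.62), reached at least 3 for 40 members and at least 5 for 10.

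The members closest to the limit were GLYMA_05G216000, GLYMA_18G027100 and GLYMA_20G029500, with gaps of 2.002, 2.003 and 2.005. Just outside it lay GLYMA_05G088100, GLYMA_01G238600 and GLYMA_01G152500, with gaps of 1.999, 1.992 and 1.992. The gap thus ran on across the limit without a break. The largest gap, 12.9, belonged to GLYMA_20G111000. It had 92.8, 130.5 and 29.8 CPM in combined stress, 0.719, 2.31 and 0 CPM in heat stress, 2.203, 0 and 0.228 CPM in water deficit, and 0, 0.102 and 0 CPM in control. Even its lowest combined-stress library lay above every other library by that factor, and the coefficient of variation among the combined-stress libraries was 60.3% (n = 3).

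**Figure D1:**
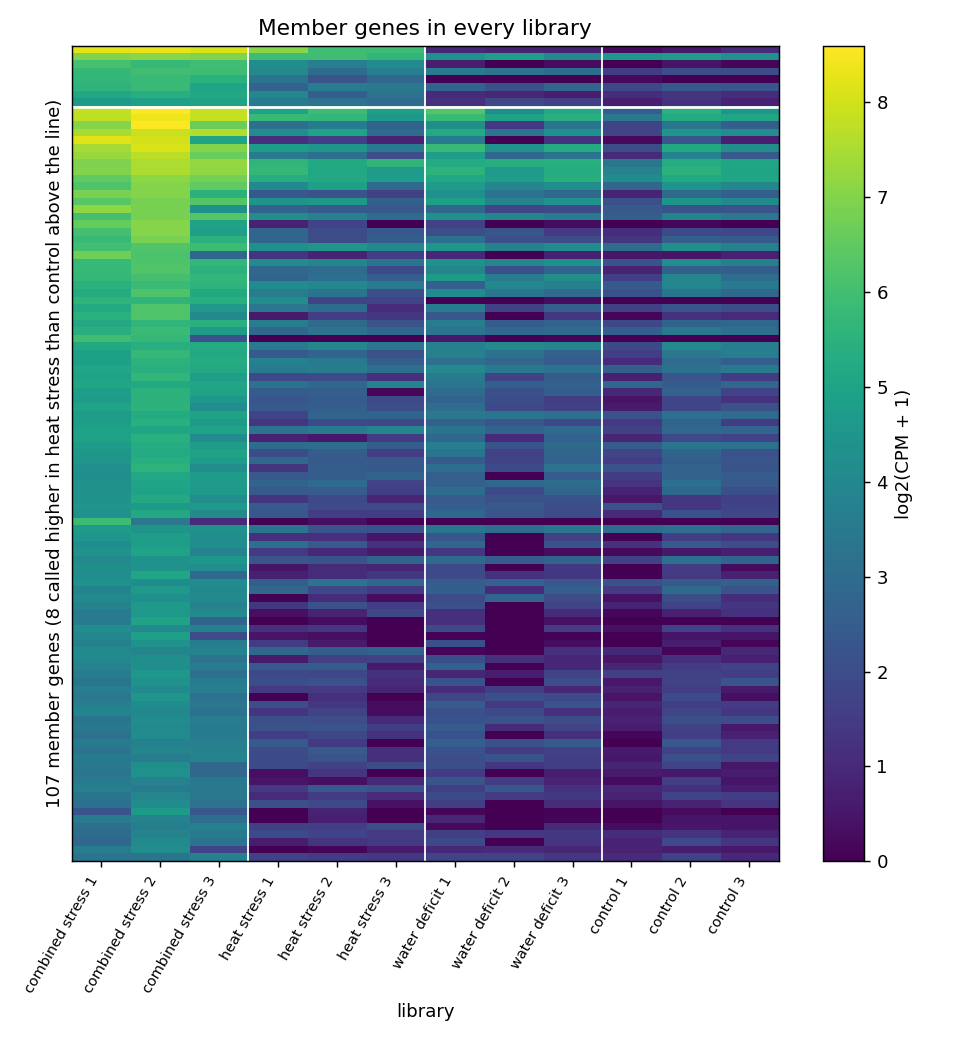
Levels of the 107 members, with a row per gene and a column per library, as log2(CPM + 1). The 8 genes above the white line were called higher in heat stress than in control, and all rows are highest in the 3 combined-stress columns because the rule chose them so.

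The mean level of the members in combined stress ranged from 10.1 to 295 CPM with a median of 29.1 CPM. A mean of at least 100 CPM was reached by 12 members, 40 lay under 20 CPM, and the 10 with the highest means made up 39.2% of the summed mean. Over the 107 members, the median of the mean levels was 3.48 CPM in heat stress, 3.78 CPM in water deficit and 2.13 CPM in control. The typical member was thus detected at a low level in the other conditions.

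Summed over all members, the level was 4955, 6879 and 4005 CPM in the combined-stress libraries. It was 972, 869 and 608 CPM in heat stress, 1003, 532 and 688 CPM in water deficit, and 231, 727 and 531 CPM in control. The combined-stress libraries lay above all the others, as the rule requires, while the 3 other conditions overlapped one another. The group means were 5279.8 ± 1464 CPM in combined stress, 816 ± 188 CPM in heat stress, 741 ± 240.1 CPM in water deficit and 496 ± 249.9 CPM in control (SD, n = 3 each).

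**Figure D2:**
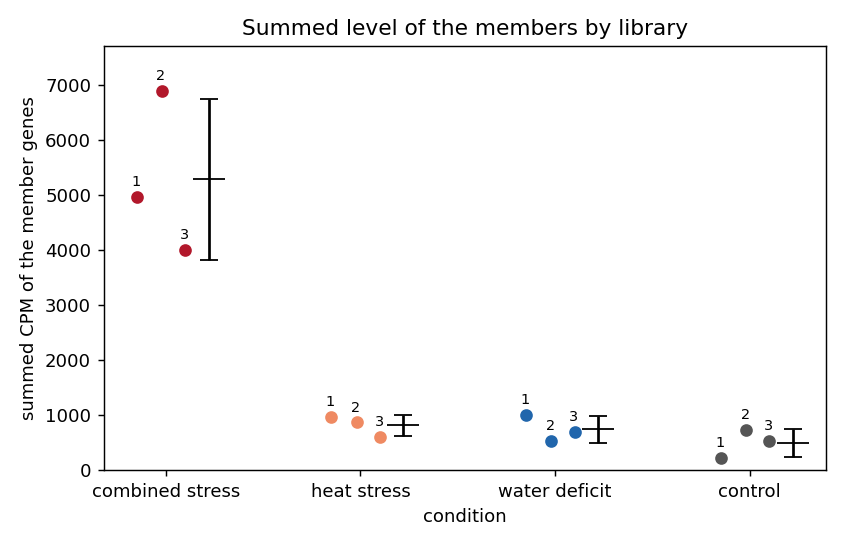
Summed CPM of the 107 members in each library (numbered points) by condition, with the group mean and SD (n = 3) beside them. Combined-stress libraries lie between 4005 and 6879 CPM, and those of the other conditions between 231 and 1003 CPM.

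Relative to control, the mean level in combined stress was a median of 10.1-fold higher (quartiles 6.37 and 21.2, lowest 3.20) over the 102 members with more than 3 counts in a control library. A further 4 members had 0 counts in all 3 control libraries. Taking 3 counts per library as the floor, their mean combined-stress levels were at least 116-fold to at least 339-fold higher. These bounds hold for the means and not for each library. GLYMA_10G246300, for example, had 58.8, 9.88 and 1.09 CPM in combined stress. GLYMA_04G229800 had 1074, 843 and 961 counts in combined stress, 396, 41 and 44 in heat stress, 0, 0 and 4 in water deficit and 0 in each control library. GLYMA_10G278000 had 240, 525 and 138 counts in combined stress, at most 4 in a heat-stress library, at most 26 in a water-deficit library and 0 in control. GLYMA_04G077600 and GLYMA_10G246300 are described with the spread of the combined-stress libraries.

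All 107 members passed the low-count filter, and with them 38737 genes were tested, but the filter also counted the combined-stress libraries, where members are high by choice. With only the 6 libraries of a comparison, 98 members passed it for heat stress against control, 94 for water deficit against control and 100 for heat stress against water deficit. The rest were tested only through libraries outside the comparison, those of combined stress among them.

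The interaction, the log2 change in combined stress less those in heat stress and in water deficit, holds the combined-stress level that the rule used and is given as a description. It had a median of 2.02 over the members and -0.02 over all genes tested, and was above 0 for 106 of 107. The exception was GLYMA_04G229800 (-1.22), whose control libraries held 0 counts and whose fitted values depend on the model's prior count.

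Genes were called in edgeR's quasi-likelihood test at a Benjamini-Hochberg adjusted p under 0.05 over all genes tested. Combined-stress libraries were not compared here, but they entered the filter, the scaling and the shared estimate of spread. In heat stress 8 of the 107 members (7.48%) rose against control, and 0 fell, where 1.13% of all genes tested were called higher and 0.764% lower, 1.89% in all (edgeR). For these 8 genes the description "raised only in combined stress" did not hold: they were higher in heat stress than in control, and higher again in combined stress. The calls of 7 of the 8 held in all 19 alternative settings. The 99 others passed no test between heat stress and control, with log2 changes from -1.72 to 10.33 and a median of 0.34. Passing no test does not show that each of them was unchanged in heat stress, so the description is not shown to hold for them. GLYMA_04G229800, for example, had 396, 41 and 44 counts in heat stress and 0 in each control library, without a call.

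GLYMA_20G213900, the member with the highest mean CPM, had 303, 314 and 267 CPM in combined stress. In heat stress it had 132, 59.8 and 57.6 CPM, in water deficit 1.00, 0.785 and 0.799 CPM, and in control 0.226, 0.460 and 1.01 CPM. The heat-stress libraries lay far above all those of the cooler conditions, and the highest of them lay below the lowest combined-stress library by a factor of 2.03. The log2 change of heat stress against control was 7.26 (SE 0.487, edgeR adjusted p = 1.01e-05).

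GLYMA_02G252800 followed the same order. It had 50.7, 53.7 and 43.9 CPM in combined stress, 8.63, 3.70 and 6.56 CPM in heat stress, 0 CPM in each water-deficit library, and 0.150, 0 and 0 CPM in control. Only 4 counts, all in 1 library, were found in the control group. Its log2 change in heat stress was 6.65 (SE 0.571, edgeR adjusted p = 6.85e-06), a fitted value that depends on the model's prior count. GLYMA_01G106800 had 67.0, 52.6 and 60.7 CPM in combined stress, 17.5, 11.7 and 16.8 CPM in heat stress, 0.651, 0 and 0.228 CPM in water deficit, and 0, 0.409 and 0.0922 CPM in control. Again no heat-stress library overlapped with control, and the log2 change was 6.65 (SE 0.659, edgeR adjusted p = 0.000191).

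GLYMA_13G071400 had 34.6, 41.8 and 36.1 CPM in combined stress, 15.1, 4.91 and 8.38 CPM in heat stress, 1.05, 0.897 and 0.571 CPM in water deficit, and 1.2, 1.43 and 1.2 CPM in control. The heat-stress libraries spread over 3-fold but stayed above control (log2 change 2.93, SE 0.353, edgeR adjusted p = 7.49e-05). GLYMA_01G141900 had 24.4, 27.7 and 30.0 CPM in combined stress, 10.7, 8.55 and 6.93 CPM in heat stress, 1.25, 2.58 and 2.06 CPM in water deficit, and 0.639, 1.38 and 0.737 CPM in control. Its log2 change in heat stress was 3.30 (SE 0.337, edgeR adjusted p = 9.93e-06).

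GLYMA_05G022200 was detected in every library. It had 123, 132 and 124 CPM in combined stress, 60.3, 60.7 and 49.8 CPM in heat stress, 20.5, 27.8 and 15.8 CPM in water deficit, and 22.9, 26.2 and 19.5 CPM in control. Water-deficit and control libraries overlapped, and heat stress stood above both (log2 change against control 1.35, SE 0.183, edgeR adjusted p = 0.000287). Its combined-stress libraries were the closest to each other among these 8 genes, with a coefficient of variation of 3.94%. GLYMA_19G009100 had 46.7, 54.1 and 31.2 CPM in combined stress, 5.62, 11.1 and 9.78 CPM in heat stress, 5.76, 3.36 and 5.99 CPM in water deficit, and 2.56, 4.34 and 3.96 CPM in control. Its log2 change in heat stress, 1.31 (SE 0.306, edgeR adjusted p = 0.0302), was the least firm of the 8: it passed in 10 of 19 alternative settings, with adjusted p-values from 0.00392 to 0.145.

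GLYMA_06G177600 was the member that rose in both single stresses. It had 51.9, 61.1 and 59.3 CPM in combined stress, 15.5, 7.28 and 12.1 CPM in heat stress, 10.7, 8.69 and 7.25 CPM in water deficit, and 1.81, 3.12 and 2.95 CPM in control. All stressed libraries lay above all control libraries. The log2 change was 2.19 in heat stress (SE 0.277, edgeR adjusted p = 0.000132) and 1.78 in water deficit (SE 0.277, edgeR adjusted p = 0.0127). It was the single member called in water deficit against control, where 0.00516% of all genes, 2 in number, were called higher and 0.0904% lower (0.0955% in either direction). That call was lost without control replicate 1 or without control replicate 2, in the fit of only the 6 libraries compared and in limma on FPKM, with adjusted p-values up to 0.208 over 19 settings.

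**Figure D3:**
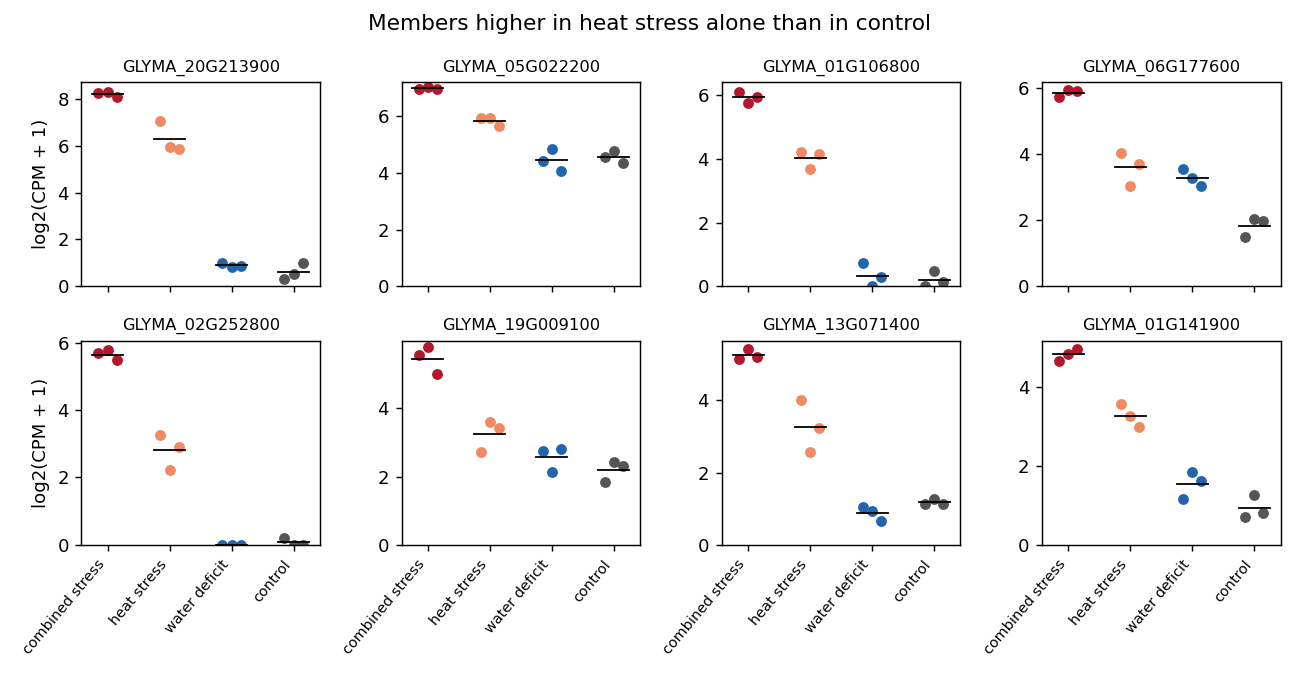
Levels of the 8 members called higher in heat stress than in control, as log2(CPM + 1), in each library by condition, with horizontal lines at the mean of the 3 log2 values. Heat-stress points lie between those of combined stress and control in every panel, and in the panel of GLYMA_06G177600 the water-deficit points also lie above control.

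Heat stress was also set against water deficit, where 8 members were called higher and 0 lower, with 2.1% and 1.69% of all genes called in those directions and 3.79% in either (edgeR). Of these 8, 6 were among the genes that rose in heat stress against control. The others were GLYMA_06G134900 and GLYMA_08G209400, both named after their values were seen. GLYMA_06G134900 had 16.4, 14.0 and 13.3 CPM in combined stress, 6.15, 4.74 and 5.37 CPM in heat stress, 0.100, 0 and 1.26 CPM in water deficit, and 0.978, 0.102 and 0.922 CPM in control. Its log2 change was 3.62 (SE 0.866, edgeR adjusted p = 0.0379) against water deficit, and 3.01 (SE 0.809, edgeR adjusted p = 0.0935) against control. GLYMA_08G209400 had 8.03, 11.1 and 12.3 CPM in combined stress, 2.07, 2.02 and 3.12 CPM in heat stress, 0.150, 0 and 1.03 CPM in water deficit, and 0.226, 0.460 and 0.415 CPM in control. In both genes all heat-stress libraries lay above all water-deficit and control libraries. The calls against water deficit passed in 8 and 7 of 19 alternative settings. Without any 1 of the combined-stress libraries, 6 members were called in this comparison. With some other libraries left out, 1 or 2 members were called lower in heat stress.

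Of the 107 members, 97 were called in none of the 3 comparisons without combined-stress libraries. Among all 107, the 3 heat-stress libraries lay above the 3 control libraries for 17 members (15.9%, against 8.88% of all genes tested), and the opposite held for 0 (11.3% of all genes). Among the 97 uncalled members the first count was 7 (7.22%), so most of the 17 were called genes. The shares over all genes include called genes, and no share over all uncalled genes was computed.

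Water deficit lay wholly above control for 6 of the 107 (5.61%, against 4.43% of all genes) and wholly below for 1 (6.89% of all genes); among the 97 these counts were 5 and 0. Heat stress lay wholly above water deficit for 9 of the 107 (8.41%, against 9.64%) and wholly below for 7 (6.54%, against 9.94%). Among the 97, heat stress lay wholly above water deficit for 1 (1.03%) and wholly below for 7 (7.22%). All 8 members called between these conditions were higher in heat stress, so leaving out called genes lowers the first of these counts. Of the 9, 8 were thus called genes. The counts among the 97 have no like share over all uncalled genes beside them.

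Over all 107, the group means leaned toward both single stresses, including members that passed the filter only through libraries outside the comparison. The heat-stress mean lay above the control mean for 81 members (75.7%, against 48.0% of all genes tested), and the water-deficit mean for 95 (88.8%, against 48.3%). Control had the lowest mean of the 3 for 73 members (68.2%, against 26.0%). The median log2 change over the members was 0.45 in heat stress and 0.63 in water deficit, with 0.01 and -0.00 over all genes tested.

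These medians depended on single libraries. Without control replicate 1 they were 0.14 in heat stress (58 members above 0) and 0.28 in water deficit (80 above 0), and without control replicate 2 they were 0.94 (98 above 0) and 1.00 (100 above 0). Without heat stress replicate 3 the median in heat stress was 0.69, and without heat stress replicate 1 it was 0.31. Without water deficit replicate 1 the median in water deficit was 0.28 (71 above 0), and without water deficit replicate 2 it was 0.84 (98 above 0). The median of heat stress against water deficit was -0.15. It was 0.11 without heat stress replicate 3, 0.34 without water deficit replicate 1 and -0.30 without water deficit replicate 2. No direction between heat stress and water deficit is therefore given for the members as a whole.

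Within each condition the members ordered the replicates in a shared way. A tie was counted for no library. Among the combined-stress libraries, replicate 2 was the highest for 91 of 107 members (85.0%), where it was the highest for 32.7% of all genes tested. Among the heat-stress libraries, replicate 3 was the lowest for 66 members (61.7%, against 31.1% of all genes). Among the water-deficit libraries, replicate 1 was the highest for 79 members (73.8%, against 29.5%). Among the control libraries, replicate 1 was the lowest for 82 members (76.6%, against 36.2%) and lay under 0.5 of both other libraries for 60 (56.1%, against 5.197%).

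Control replicate 1 was also the library with the most counts, 26591115, and levels were scaled to that total; the part of depth in this order was not tested. The orders in heat stress, water deficit and control were shown together by 45 members (42.1%), where 6.16% of all genes tested showed all 3. Among the genes called higher in heat stress this held for 1 of 8, and among the other members for 44 of 99, a difference that was not tested. GLYMA_06G275300 gives an example. It had 223, 384 and 225 CPM in combined stress, 30.7, 57.6 and 27.7 CPM in heat stress, 76.5, 17.6 and 34.9 CPM in water deficit, and 4.96, 44.1 and 22.3 CPM in control. Its lowest library of the 12 was control replicate 1, and control replicate 2 was exceeded by 1 heat-stress and 1 water-deficit library.

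**Figure D4:**
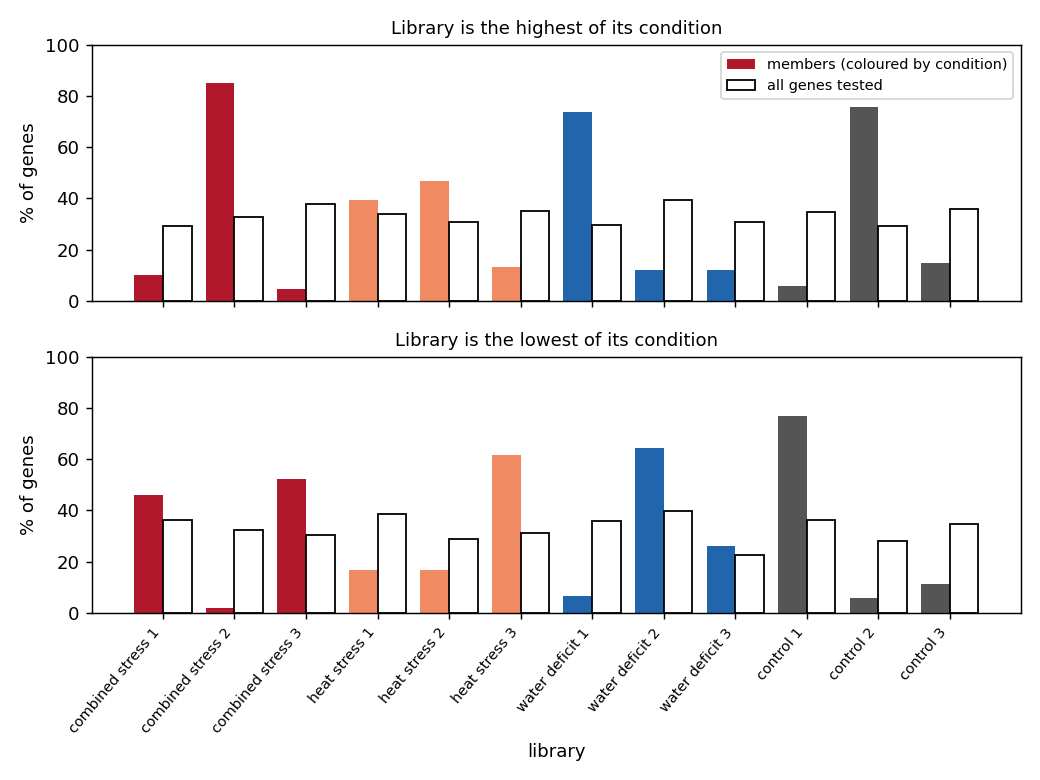
Share of genes (%) for which each library was the highest (upper panel) or the lowest (lower panel) of its condition, for the 107 members (filled bars, coloured by condition) and for all 38737 genes tested (open bars). Combined stress replicate 2, water deficit replicate 1 and control replicate 2 are the highest for most members, and control replicate 1 is the lowest for 76.6% of them.

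The library that set the ceiling for the rule was water deficit replicate 1 for 53 members, where it was the highest of the 9 for 9.34% of all genes tested. Heat stress replicate 1 set it for 20 of the 107 members, a share close to the 15.5% of all genes tested for which it was the highest of the 9. Without water deficit replicate 1 the rule would have taken 134 genes, and without heat stress replicate 1 it would have taken 129. Water deficit replicate 2 set the ceiling for 6 members. It held 0 counts for 30 members (28.0%), against 12 in heat stress replicate 3 and 13 in control replicate 1. Among all genes tested it also had the largest share at 0 counts, 11.0%. That each combined-stress library held counts for every member follows from the rule. Leaving out water deficit replicate 2 gave 109 genes by the rule.

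Within combined stress the highest library was under 2 times the lowest for 71 of 107 members, with a median of 1.72. It was over 5 times the lowest for 9. Because the rule is set on the lowest combined-stress library, it favours members whose 3 libraries lie close together. The share of all genes with such a spread was not computed. In 12 members replicate 3 lay under 0.5 of both other libraries (11.2%, against 4.23% of all genes tested), and 0 of the 8 genes called higher in heat stress were among them.

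GLYMA_10G246300 had the widest spread. It had 1311, 172 and 26 counts in the combined-stress libraries (58.8, 9.88 and 1.09 CPM), against 1, 5 and 0 in heat stress and 0 counts in every water-deficit and control library. It was thus close to absent outside combined stress, but a single combined-stress library held most of its reads. GLYMA_04G077600 had 61.7, 51.5 and 3.45 CPM in combined stress, against 0 CPM in all heat-stress libraries, 0.501, 0 and 0.114 CPM in water deficit and 0 CPM in all control libraries. GLYMA_16G071800 had 103, 69.7 and 6.30 CPM in combined stress, 1.44, 0.809 and 2.04 CPM in heat stress, 1.00, 0 and 0.685 CPM in water deficit, and 0.451, 0.358 and 0.737 CPM in control.

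GLYMA_08G341500 had 291, 258 and 31.6 CPM in combined stress, 1.26, 1.96 and 0.752 CPM in heat stress, 10.3, 0 and 1.37 CPM in water deficit, and 0.150, 3.88 and 0.645 CPM in control. In these 4 genes replicate 3 was the lowest combined-stress library, though above the 9 other libraries, and in GLYMA_10G246300 replicate 2 was low as well.

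**Figure D5:**
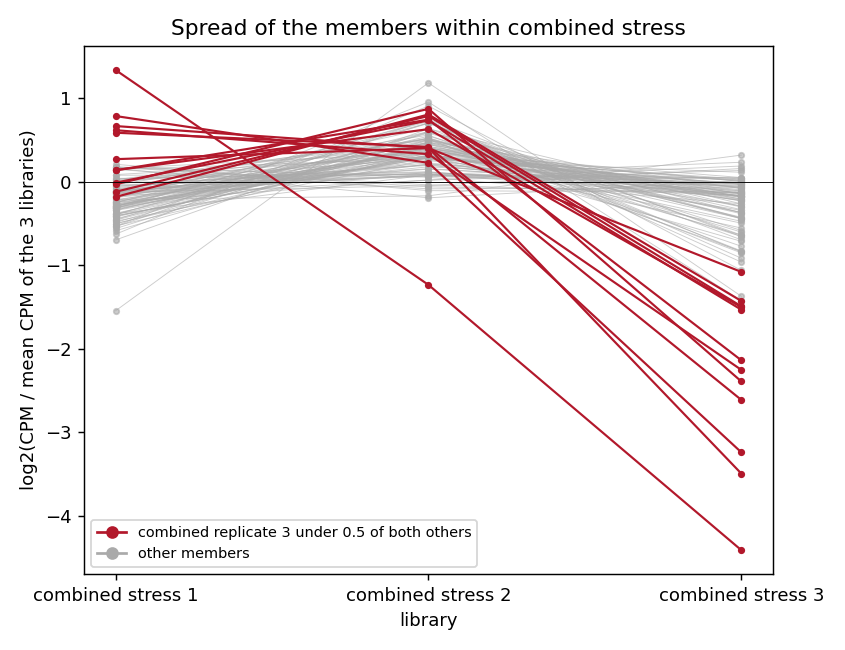
Level of each member in the 3 combined-stress libraries, as the log2 ratio to its mean over those 3 libraries. Grey lines are the other members, and the 12 red lines are the members whose replicate 3 lay under 0.5 of both other libraries, falling to 1.09 CPM for GLYMA_10G246300.

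The members were spread over the genome as far as the IDs show it. The number before the G in an ID names the chromosome, and members were found on all 20, from 2 on chromosomes 12 and 15 to 10 on chromosome 8. Per ID on the chromosome this was between 0.0721% (chromosome 15) and 0.303% (chromosome 19), with 0.192% over all such IDs. In the order of IDs along a chromosome, 10 members lay within 10 IDs of another member, in 4 runs. How many would lie so close in a draw of as many IDs was not computed. The sources used here do not say how reads that match several similar genes were counted, so the levels of neighbours that may be copies of each other are uncertain.

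GLYMA_02G281400 and GLYMA_02G281500 were next to each other in ID order. GLYMA_02G281400 had 215, 329.8 and 225 CPM in combined stress, 53.5, 50.3 and 22.8 CPM in heat stress, 53.9, 30.6 and 42.0 CPM in water deficit, and 9.55, 36.8 and 32.2 CPM in control. GLYMA_02G281500 had 123, 186 and 139.6 CPM in combined stress, 52.1, 34.1 and 24.1 CPM in heat stress, 45.7, 23.7 and 39.1 CPM in water deficit, and 13.2, 45.3 and 31.6 CPM in control. Both were highest in combined stress replicate 2 and lowest in control replicate 1. The third of this run, GLYMA_02G282300, lay 8 IDs further and was lower, at 23.6 ± 1.48 CPM in combined stress, against 3.48 ± 0.919 CPM in heat stress, 4.05 ± 0.934 CPM in water deficit and 2.44 ± 0.926 CPM in control (SD, n = 3 each).

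On chromosome 14, GLYMA_14G032000, GLYMA_14G032800 and GLYMA_14G033000 formed a second run. GLYMA_14G033000 had 174, 239.9 and 191 CPM in combined stress, 18.3, 30.8 and 6.93 CPM in heat stress, 37.0, 8.58 and 19.1 CPM in water deficit, and 2.44, 21.8 and 17.3 CPM in control. The ID between it and GLYMA_14G032800, GLYMA_14G032900, was lower in combined stress than in control by its means (29.2 against 65.0 CPM), so the high level was not shared along the run. GLYMA_14G121400, which had 131, 379 and 96.8 CPM in combined stress, lay 2 IDs from GLYMA_14G121200, which had 18.9, 46.0 and 17.4 CPM there. The ID between them had 0 CPM in combined stress and in control. The last run was GLYMA_11G173400 and GLYMA_11G173500, next to each other, with 12.4 ± 3.99 and 29.1 ± 10.4 CPM in combined stress, against 2.32 ± 1.39 and 3.52 ± 1.47 CPM in control (SD, n = 3 each).

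The deposited FPKM values, a unit scaled by gene length as well as by depth, had a median over the members' means of 30.0 in combined stress, 3.24 in heat stress, 2.89 in water deficit and 1.99 in control. In FPKM, 85 of the 107 members kept a gap of at least 2 and 105 had all combined-stress libraries above all 9 others. The other two were GLYMA_02G282300 and GLYMA_14G032000, listed at 0 FPKM in some combined-stress libraries in which they had at least 431 counts. FPKM did not follow the counts by a fixed factor per gene. GLYMA_07G175700 had 30.8 FPKM at 0.978 CPM in control replicate 1, and 6.09 FPKM at 5.52 CPM in control replicate 2. In libraries with at least 1 CPM, and relative to each library's median, FPKM per CPM differed over 2-fold between libraries for 33 of 104 members, and 3 others were listed at 0 FPKM in such a library. FPKM is therefore not used to rank the members. CPM is not scaled by length, so the orders and shares of members by CPM given above refer to reads and not to transcript number.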

How the data were processed

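The submitters' processing notes name HISAT2 2.2.1, a read aligner; the counting tool, strand setting, annotation and genome build are not given in the sources used here. The authors deposited whole-number counts for each gene and, in a separate table, FPKM, both with 1 column per library, per the file headers. Columns were matched to samples through the labels. CPM was computed as the count over the library total, without further factors.

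The tests used edgeR 4.0.16 (R 4.3.3): quasi-likelihood, robust, TMM factors from 0.951 to 1.06, filterByExpr by group (38737 genes left), 1 fit of 4 group means, Benjamini-Hochberg adjustment over all genes tested, calls at an adjusted p under 0.05. The SE is the log2 change over the square root of F, an approximation. The test was tried on simulated counts first. Alternatives used DESeq2 1.42.0, and limma 3.58.1 on log2(FPKM + 1) with genes averaging under 1 FPKM left out.

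The members and lists were chosen with earlier results of these data known. For IDs without names, the naming rule gave GLYMA_20G213900 (highest mean) and GLYMA_20G111000 (largest gap); all other IDs were named after their values were seen. The 25 word-based gene lists, 4 of them cell type markers, could not be used without gene descriptions. No sequence is shown. Nothing states that replicates came from separately grown sets of plants, so p-values measure the spread between these pooled samples. Floors of 3 counts cover counting error only.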

Additional observations from a re-analysis of the deposited data

How the results depend on the processing

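The number of genes the rule takes depends on its limits: 232 with a gap of at least 1.5, 40 with 3, 265 with a mean of at least 1 CPM and 67 with 20 CPM. TMM factors gave 91 genes, all among the 107, and FPKM gave 118, of which 71 were shared. Leaving out 1 library at a time gave from 96 genes without combined stress replicate 2 to 168 without combined stress replicate 1. Members called in heat stress against control numbered from 7 to 12 without 1 library, against 8 with all libraries. In heat stress against water deficit they numbered from 6 to 9, also against 8. Of these, 2 were lower in heat stress without control replicate 1 or without heat stress replicate 2. Without control replicate 2, water deficit replicate 2 or heat stress replicate 1, 1 was lower. The fit of only the 6 libraries compared called 7 higher and 1 lower. In water deficit against control the 1 call became 0 in limma on FPKM (7 members at an unadjusted p under 0.05) and in edgeR's fit of only the 6 libraries compared (2 members), and from 0 to 1 without 1 library (0 without control replicate 1 or 2, with 7 and 32 members at an unadjusted p under 0.05). With DESeq2, 11 members were called in heat stress against control, 1 in water deficit against control, and 9 (8 higher, 1 lower) in heat stress against water deficit. The cause was not tested. None of the genes named as called between these 3 conditions reversed its direction in the 19 alternatives. With the replicate number as a block, 7 members were called in heat stress, 1 in water deficit and 10 (8 higher, 2 lower) in heat stress against water deficit. Between heat stress, water deficit and control, same-numbered libraries did not deviate together in every pair (correlations across genes from -0.219 to 0.142). Combined-stress libraries were not in this check. Whether same-numbered libraries shared a batch was not tested.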
